A study of Mus musculus with 24 samples.

Results

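Cathepsins are proteases that mostly work in endosomes and lysosomes, and the 10 described here (*Ctsa*, *Ctsb*, *Ctsc*, *Ctsd*, *Ctsf*, *Ctsh*, *Ctsl*, *Ctso*, *Ctss* and *Ctsz*) were chosen by name and found by their Ensembl identifiers among the 17301 genes of the table, all 10 of 10. Their mRNA was measured in 4 myeloid populations sorted from colon lamina propria (LP) and from colon tumours. The populations were F4/80hi MHCIIhi macrophages, F4/80hi MHCIIlow macrophages, monocytes and neutrophils. With 3 libraries in each of the 8 groups, 24 libraries were compared, and each library came from a numbered pool of mice. The LP cells came from C57BL/6J mice without the *Apc* mutation and the tumour cells from *Apc* Min/+ mice on the same background, which carry a germline *Apc* mutation in every cell, so genotype and tissue cannot be told apart. The tumour mice were young adults killed some weeks after dextran sodium sulphate (DSS), which speeds up adenoma growth in the colon. The study's methods describe DSS for the control mice too, at another strength, whereas the labels call the LP healthy, so the treatment of the LP donors is not settled.

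Most cathepsins are made as inactive precursors, carried to the lysosome by mannose 6-phosphate receptors and activated there by cleavage at low pH. In macrophages they degrade proteins taken up from outside, trim the invariant chain of MHC class II, and can be secreted into the surrounding matrix. *Ctsb*, *Ctsl*, *Ctss*, *Ctsf* and *Ctso* belong to the papain-like cysteine proteases, as do *Ctsc*, *Ctsh* and *Ctsz*, which mainly remove residues from the ends of proteins. *Ctsd* is an aspartic protease, and *Ctsa* a serine carboxypeptidase that also protects the lysosomal enzymes neuraminidase 1 and beta-galactosidase. Cystatins and stefins are natural inhibitors of the cysteine cathepsins.

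Levels are given as log2 RPKM, read counts scaled to gene length and library size, and a difference of 1 on this scale is 2-fold. Reads on genes ranged from 12.84 to 41.72 M per library with a median of 26.39 M. The library sizes used for scaling were 0.466 to 1.51 times these read totals, lowest in neutrophils, so that comparisons with neutrophils depended most on the scaling. The sorted populations carried their markers. The 8 macrophage markers summed to 3699 to 7458 RPKM in macrophages and to 186 to 736 in the other populations, and the 7 neutrophil markers to 11604 to 30625 in neutrophils and to at most 301 elsewhere. The gap was narrower for the 6 monocyte markers, at 499 to 662 RPKM in LP monocytes and 988 to 1158 in tumour ones. Outside monocytes they reached 457 RPKM, in LP MHCIIlow pool II, near the level of LP monocytes. Transcripts of other cells differed between the tissues. The 6 fibroblast markers summed to 6.83 to 62 RPKM in LP libraries and to at most 1.57 in tumour libraries, and the 6 B and plasma cell markers to 52.8 to 9132 against 1.16 to 196. Other markers were higher in tumours. The 7 epithelial markers summed to 128 to 246 RPKM in tumour neutrophils against 10.8 to 45.1 in LP neutrophils, and the 3 erythroid markers measured to 0.971 to 16.8 in tumour libraries against 0.0249 to 0.604 in LP libraries. Fewer cells of a type and less RNA per cell cannot be told apart in such libraries, and the part of these transcripts in the results below was not tested.

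The cathepsins made up different mixtures in the 4 populations. *Ctsd* was the most abundant of the 10 per gene length in all 6 neutrophil libraries, with a mean share of their summed RPKM of 57.7% ± 2.58 (SD, n = 3) in LP and 49.3% ± 1.07 in tumours. In monocytes *Ctss*, a protease that trims the invariant chain, led in all 6 libraries, with 35.6% ± 3.03 in LP and 42.9% ± 0.212 in tumours, whereas in neutrophils its share was 5.24% ± 1.22 and 6.56% ± 1.47. Ranks between genes depend on the gene lengths in the values, 1358 bases for *Ctss* and 4739 for *Ctsb*. By reads alone *Ctsb* was above *Ctss* in every monocyte and macrophage library. LP monocytes had 118510 to 252171 reads of *Ctsb* and 68013 to 122195 of *Ctss*. In LP macrophages *Ctsb* and *Ctss* stood close together in the MHCIIhi subset, at 29.3% ± 0.81 and 29.6% ± 0.534, and *Ctsb* led in the MHCIIlow subset at 29.8% ± 0.645. In tumour macrophages *Ctss* led in all 3 MHCIIhi libraries, at 33% ± 3.79. In the tumour MHCIIlow subset *Ctss* led in pools I and V and *Ctsd* in pool VII, with mean shares of 25.9% ± 1.72 and 22.7% ± 3.53. The summed RPKM of the 10 had its highest medians in tumour macrophages, 10924 in the MHCIIlow and 10733 in the MHCIIhi subset. The ranges of these subsets overlapped, from 10338 to 11971 and from 8940 to 10851. The sum was lowest in tumour neutrophils, from 3070 to 3223.

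**Figure D1:**
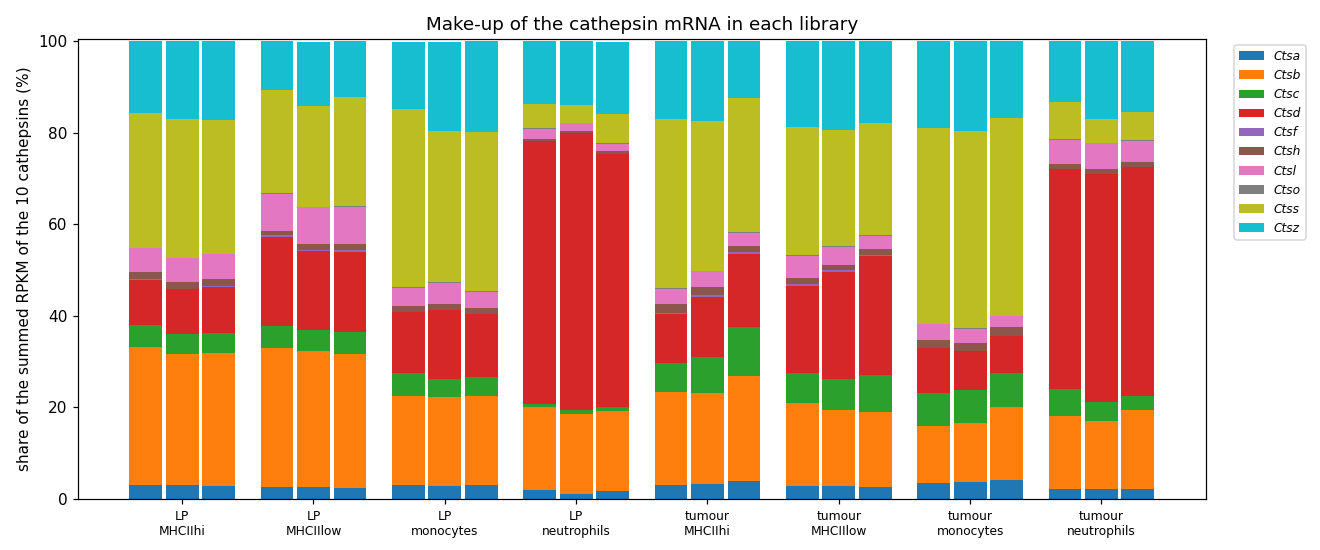
Share of each cathepsin in the summed RPKM of the 10 (%, vertical axis) in each of the 24 libraries, with 1 bar per library in groups of 3. *Ctsd* takes 48.1 to 60.5% of the bar in the 6 neutrophil libraries. *Ctss* is the tallest band in the 6 monocyte libraries and also in the 3 tumour MHCIIhi libraries.

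Across the 8 groups, tumour MHCIIhi macrophages had the highest mean for 6 of the 10 cathepsins (*Ctsa*, *Ctsc*, *Ctsf*, *Ctsh*, *Ctso* and *Ctss*). *Ctsb* was highest in LP MHCIIhi macrophages, *Ctsl* in LP MHCIIlow macrophages, *Ctsz* in tumour MHCIIlow macrophages and *Ctsd* in LP neutrophils. Neutrophils held the lowest mean for 9 of the 10 cathepsins, and only *Ctsd* was lowest elsewhere, in tumour monocytes. Many groups next to each other in these orders did not differ beyond their spread, since libraries overlapped in 36 of the 70 neighbouring pairs and limma called 19 of the pairs. For none of the 10 did limma call a difference between the group with the highest mean and the one below it. For *Ctsc*, tumour MHCIIhi and MHCIIlow macrophages differed by 0.05 with overlapping libraries, and the step below them, to LP MHCIIhi macrophages, was 0.96 (limma adjusted p = 0.00053). The distance from the highest to the lowest group mean ran from 2.12 for *Ctsz* to 4.38 for *Ctsc* on the log2 scale, leaving out *Ctsf*, which had libraries without reads. Under quantile normalization the highest group was the same for 6 of the 10 cathepsins.

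**Figure D2:**
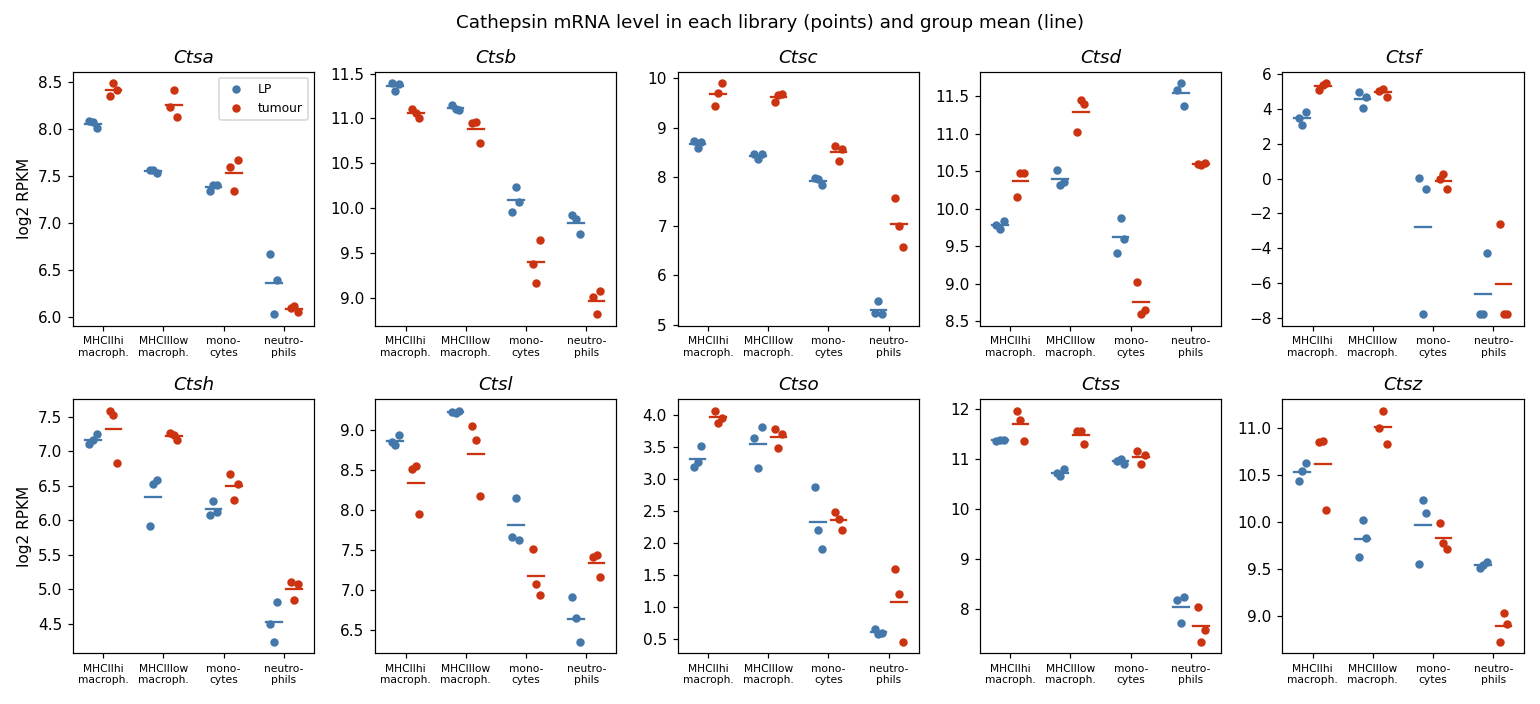
Level of each cathepsin (log2 RPKM, vertical axes that differ between panels) in the 3 LP libraries (blue points) and 3 tumour libraries (red points) of each population, with lines at the group means. Red points lie above blue ones in all 4 populations for *Ctsc*, whereas for *Ctsd* they lie above in both macrophage subsets and below in monocytes and neutrophils.

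The first question was how each population differed between tumour and LP. *Ctsc* (chromosome 7, 88278085 to 88310888 on the plus strand of GRCm38, protein coding), which encodes dipeptidyl peptidase 1, the activator of granule serine proteases, rose in tumours in all 4 populations. *Ctsd* (chromosome 7, 142375911 to 142388038 on the minus strand) rose in both macrophage subsets and fell in monocytes and neutrophils. The 300 bases around the annotated start of both genes, and of *Ctss* (chromosome 3, 95526786 to 95556403, plus strand), are shown because *Ctsc* and *Ctsd* passed between the tissues in all 4 populations and *Ctss* stood far apart between monocytes and neutrophils. They run from 250 bases before to 50 after the start in RefSeq on GRCm38.p6. For *Ctsd* this start lies inside the gene coordinates printed above, not at their end. Capitals mark CACGTG, the E-box to which transcription factor EB and its relatives bind, and AGGAAGT or its reverse complement, the core bound by PU.1 and related ETS factors.
Ctsc, chr7:88277835-88278134, plus strand: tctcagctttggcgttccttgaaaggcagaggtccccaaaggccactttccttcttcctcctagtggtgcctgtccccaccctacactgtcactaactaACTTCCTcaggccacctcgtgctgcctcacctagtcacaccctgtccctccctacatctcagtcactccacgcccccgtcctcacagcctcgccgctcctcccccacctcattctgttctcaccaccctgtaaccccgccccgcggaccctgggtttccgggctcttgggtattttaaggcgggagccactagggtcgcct
Ctsd, chr7:142387778-142388077, minus strand: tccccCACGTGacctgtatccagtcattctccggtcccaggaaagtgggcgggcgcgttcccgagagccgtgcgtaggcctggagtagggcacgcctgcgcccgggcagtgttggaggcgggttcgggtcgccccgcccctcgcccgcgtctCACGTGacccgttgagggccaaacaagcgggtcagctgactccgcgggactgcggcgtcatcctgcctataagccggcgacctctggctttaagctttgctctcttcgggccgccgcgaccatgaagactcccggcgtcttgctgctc
Ctss, chr3:95526536-95526835, plus strand: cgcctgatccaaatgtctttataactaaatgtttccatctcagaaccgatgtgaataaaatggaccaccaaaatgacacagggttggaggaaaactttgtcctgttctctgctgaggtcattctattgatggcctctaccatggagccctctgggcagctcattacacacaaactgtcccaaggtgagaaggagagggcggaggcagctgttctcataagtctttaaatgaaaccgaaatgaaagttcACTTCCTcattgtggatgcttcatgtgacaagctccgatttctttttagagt
Of the 10 cathepsins, 8 had an entry in that table, with 9 starts in all, since *Ctsa* had 2 and *Ctsb* and *Ctsh* none. CACGTG was found, on both strands at once since it is its own reverse complement, at 4 of the 9 starts (*Ctsa*, *Ctsd*, *Ctsf* and *Ctsl*) and in 7.15% of all 32851 promoters. AGGAAGT was found on either strand at 3 of the 9 (*Ctsc*, *Ctso* and *Ctss*) and in 9.35% of all promoters. These matches describe the letters and say nothing about binding in these cells.

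In neutrophils *Ctsc* stood at 5.23, 5.47 and 5.21 log2 RPKM in LP and at 7.57, 7.01 and 6.58 in tumours. In monocytes the LP libraries were at 7.98, 7.96 and 7.83 and the tumour libraries at 8.63, 8.33 and 8.56. The tissues did not overlap in either population, with tumours higher, and the same held in macrophages, where MHCIIhi cells went from 8.72, 8.58 and 8.70 to 9.44, 9.71 and 9.90 and MHCIIlow cells from 8.47, 8.36 and 8.47 to 9.53, 9.66 and 9.69. The fitted difference was 1.75 ± 0.18 (SE) in neutrophils (limma adjusted p = 6.07e-07), a 3.37-fold rise. It was 1.01 ± 0.18 in MHCIIhi macrophages (limma adjusted p = 0.000352) and 1.19 ± 0.18 in MHCIIlow macrophages (limma adjusted p = 4.83e-05). The rise in monocytes was the smallest, 0.58 ± 0.18 (limma adjusted p = 0.0427), and its call was lost on leaving out LP pool III, IV or V or tumour pool I or V, with adjusted p from 0.0776 to 0.148, and with library sizes as summed reads (0.42, adjusted p = 0.169). In neutrophils the 6 monocyte markers also summed higher in tumour libraries, at 389, 236 and 165 RPKM in pools I, II and V against 143, 135 and 142 in LP, in the same order over the tumour pools as *Ctsc*. The part of monocyte transcripts in the rise of *Ctsc* was not tested. Granule proteases that *Ctsc* activates had few reads in neutrophils, with *Elane*, neutrophil elastase, at 0 reads in all tumour neutrophil libraries and at most 8 reads in LP ones, and *Prtn3*, proteinase 3, at 6 to 24 reads and *Gzmb*, granzyme B, at 6 to 80 reads per neutrophil library. *Gzmb* had 87 to 374 reads per tumour MHCIIlow library against 8 to 70 in LP, a difference that did not pass (limma adjusted p = 0.201), while *Ctsg* and *Gzma* were not analysed here.

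*Ctsd*, which encodes a main aspartic protease of the lysosome, moved in opposite directions. In MHCIIlow macrophages the LP libraries read 10.51, 10.32 and 10.36 and the tumour libraries 11.02, 11.45 and 11.39. In MHCIIhi macrophages the values were 9.78, 9.73 and 9.83 against 10.16, 10.47 and 10.48. All tumour libraries were above all LP libraries in both subsets, with differences of 0.89 ± 0.17 (limma adjusted p = 0.000662) and 0.59 ± 0.17 (limma adjusted p = 0.0183). In monocytes, by contrast, *Ctsd* went from 9.41, 9.87 and 9.59 in LP to 9.02, 8.59 and 8.65 in tumours, and in neutrophils from 11.58, 11.67 and 11.37 to 10.60, 10.58 and 10.61. All tumour libraries were below all LP libraries in both, and *Ctsd* fell by 0.87 ± 0.17 in monocytes (limma adjusted p = 0.00259) and fell by 0.95 ± 0.17 in neutrophils (limma adjusted p = 0.000302). The call in MHCIIhi macrophages was lost on leaving out LP pool III or IV or tumour pool V or VII, with adjusted p from 0.0538 to 0.0655, and with quantile normalization (adjusted p = 0.0741). Fits of only the libraries compared gave adjusted p = 0.107 in MHCIIlow macrophages and 0.0552 in monocytes. In the annotation 34.4% of the exon bases of *Ctsd* are shared with *Gm49369* on the same strand, whose reads were not analysed here.

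*Ctsb* (chromosome 14, 63122462 to 63145923, plus strand), an abundant cysteine protease with both endopeptidase and exopeptidase activity, was lower in every tumour library than in every LP library of all 4 populations. In neutrophils it went from 9.93, 9.88 and 9.71 to 9.01, 8.82 and 9.08 and fell by 0.87 ± 0.15 (limma adjusted p = 0.000218). In monocytes it went from 9.96, 10.24 and 10.07 to 9.38, 9.17 and 9.65 and fell by 0.69 ± 0.15 (limma adjusted p = 0.00579, and 0.0862 in a fit of only the libraries compared). In macrophages the differences of -0.30 ± 0.15 in MHCIIhi and -0.23 ± 0.15 in MHCIIlow cells did not pass (limma adjusted p = 0.19 and 0.307). *Fdft1*, on the opposite strand, shares 12.8% of the exon bases of *Ctsb* in the annotation and had means of 3.68 to 10.5 RPKM over the groups, far below *Ctsb*.

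*Ctsl* (chromosome 13, 64359337 to 64370890, minus strand), an endopeptidase, differed in sign between populations. In neutrophils it went from 6.91, 6.65 and 6.36 in LP to 7.41, 7.44 and 7.16 in tumours, without overlap, a rise of 0.70 ± 0.22 (limma adjusted p = 0.0192). This call was lost without LP pool V or tumour pool I or II, with adjusted p from 0.0533 to 0.0924, and the difference was 0.23 with library sizes as summed reads (adjusted p = 0.339). In MHCIIhi macrophages, MHCIIlow macrophages and monocytes the tumour libraries were all below the LP libraries, but the differences of -0.53 ± 0.22, -0.53 ± 0.22 and -0.63 ± 0.22 did not pass (limma adjusted p = 0.0985, 0.0921 and 0.0777). The difference in monocytes passed in 4 of 18 alternatives, among them quantile normalization (-0.83, adjusted p = 0.0062) and library sizes as summed reads (-0.79, adjusted p = 0.00696), and that in MHCIIlow macrophages in 4 of 18, among them without tumour pool I (-0.70, adjusted p = 0.0398). In MHCIIhi macrophages it passed by voom on recovered reads (adjusted p = 0.0494). In the annotation 26.8% of the exon bases of *Ctsl* are shared with other genes. That annotation has 6489 exon bases for *Ctsl* and the values a length of 1971, so the share in the gene as counted is not known. *Ctss* stood at 10.72, 10.66 and 10.80 in LP and 11.57, 11.56 and 11.31 in tumour MHCIIlow macrophages. The 3 tumour libraries were above the LP ones, a rise of 0.76 ± 0.19 (limma adjusted p = 0.00669, and 0.173 in a fit of only the libraries compared). *Ctss* did not pass in the other 3 populations, and its difference of -0.39 ± 0.19 in neutrophils (limma adjusted p = 0.131) was -0.86 with library sizes as summed reads (adjusted p = 0.000318) and passed without tumour pool I (adjusted p = 0.0366).

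The exopeptidases *Ctsz* and *Ctsh* and the serine carboxypeptidase *Ctsa* rose in MHCIIlow macrophages. *Ctsz* (chromosome 2, 174427493 to 174439039, minus strand), a carboxypeptidase also called cathepsin X, went there from 9.63, 10.02 and 9.83 to 11.01, 11.19 and 10.84, a rise of 1.18 ± 0.20 (limma adjusted p = 0.000222). In neutrophils *Ctsz* went from 9.51, 9.55 and 9.58 to 8.73, 9.03 and 8.92 and fell by 0.65 ± 0.20 (limma adjusted p = 0.0184). That call was lost without tumour pool I (adjusted p = 0.0703) and with libraries centred on their median, where the difference was -0.41 (adjusted p = 0.153). Tumour libraries lay above LP libraries in the former population and below them in the latter. *Ctsh* (chromosome 9, 90054152 to 90076089, plus strand), mainly an aminopeptidase, rose by 0.88 ± 0.19 in MHCIIlow macrophages (limma adjusted p = 0.00201), from 5.92, 6.53 and 6.58 to 7.27, 7.23 and 7.17. In neutrophils the tumour libraries of *Ctsh* were also above the LP ones, but the difference of 0.49 ± 0.19 did not pass (limma adjusted p = 0.0578). *Ctsa* (chromosome 2, 164832873 to 164841032, plus strand) rose by 0.70 ± 0.13 in MHCIIlow macrophages (limma adjusted p = 0.000431), from 7.57, 7.57 and 7.54 to 8.24, 8.42 and 8.13. In MHCIIhi macrophages *Ctsa* went from 8.09, 8.08 and 8.01 to 8.36, 8.49 and 8.42, without overlap, a difference of 0.36 ± 0.13 (limma adjusted p = 0.0549) that passed in 8 of 18 alternatives. In neutrophils *Ctsa* differed by -0.28 ± 0.13 (limma adjusted p = 0.109), by -0.75 with library sizes as summed reads (adjusted p = 4.47e-05), and passed without LP pool IV (adjusted p = 0.00905). Its neighbour *Pltp*, which shares exon bases with it on the opposite strand, moved the other way in MHCIIlow macrophages (-2.36 ± 0.38, limma adjusted p = 0.000116).

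*Ctsf* (chromosome 19, 4855130 to 4860918, plus strand) and *Ctso* (chromosome 3, 81932601 to 81956725, plus strand) were the scarcest. *Ctsf* was read 724 to 3622 times per macrophage library, 0 to 66 times per monocyte library and 0 to 4 times per neutrophil library. Its tumour difference is therefore described in macrophages, where every library had reads, while the counts of cathepsins called include it in every comparison. Its levels in MHCIIhi macrophages were 3.50, 3.08 and 3.82 in LP and 5.08, 5.37 and 5.48 in tumours. The groups did not overlap, but the difference of 1.84 ± 1.51 did not pass in the fit of all libraries (limma adjusted p = 0.463), whose spread for this gene included libraries without reads. It passed in a fit of only the libraries compared (adjusted p = 0.00608) and with log2(RPKM + 1), where it was 1.75 (adjusted p = 1.52e-05). *Ctso* passed between tumour and LP in none of the 4 populations in the limma fit of all libraries, with differences from 0.03 to 0.64. With limma's voom on recovered reads the difference of 0.65 in MHCIIhi macrophages passed (adjusted p = 0.00656).

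In counts, 6 of the 10 cathepsins rose and none fell in MHCIIlow macrophages, where 11.5% of the 12878 genes tested rose and 11.8% fell. The 6 monocyte markers summed to 143 to 457 RPKM in LP MHCIIlow libraries and to 48.2 to 106 in tumour ones, with 1 of the 6 called higher and 2 lower, and their part in these rises was not tested. In MHCIIhi macrophages 2 of 10 rose and none fell, against 8.01% and 11.5% of all genes. The 6 dendritic cell markers summed to 46.8 to 67.8 RPKM in LP MHCIIhi libraries and to 5.87 to 15.5 in tumour ones. Of the 4 tested, 2 were called lower in tumours, and their part was not tested. In monocytes 1 of 10 rose and 2 fell, against 4.86% and 4.43%, and in neutrophils 2 rose and 3 fell, against 13.1% and 19%. The dendritic cell markers summed to 76.3 to 148 RPKM in LP neutrophil libraries and to 2.58 to 18.3 in tumour ones. Of the 4 tested, 3 were called lower in tumour neutrophils, and their part was not tested. The count in MHCIIhi macrophages depended most on the settings, with 5 higher and 2 lower by voom on recovered reads, where *Ctsb* (-0.30, adjusted p = 0.0302) and *Ctsl* (-0.52, adjusted p = 0.0494) passed as lower. Over all genes voom called 1832 higher and 1965 lower there, against 1031 and 1480 in the main fit. With library sizes as summed reads 1 of 10 was higher and 5 lower in neutrophils, and none higher and 3 lower in monocytes. Of the 13054 genes tested with that setting, 794 rose and 4215 fell in neutrophils, and 421 and 875 in monocytes. The median difference over the 10 was 0.73 in MHCIIlow macrophages, where that of all genes was 0.06, and 0.10 in neutrophils, where that of all genes was -0.12. Of all genes called in neutrophils 40.8% rose, against 57.1% with libraries centred on their median and 15.9% with library sizes as summed reads, which moved the median of all genes to -0.58. With summed reads the share that rose went from 52.3 to 32.5% in monocytes and from 41.1 to 51.9% in MHCIIhi macrophages.

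**Figure D3:**
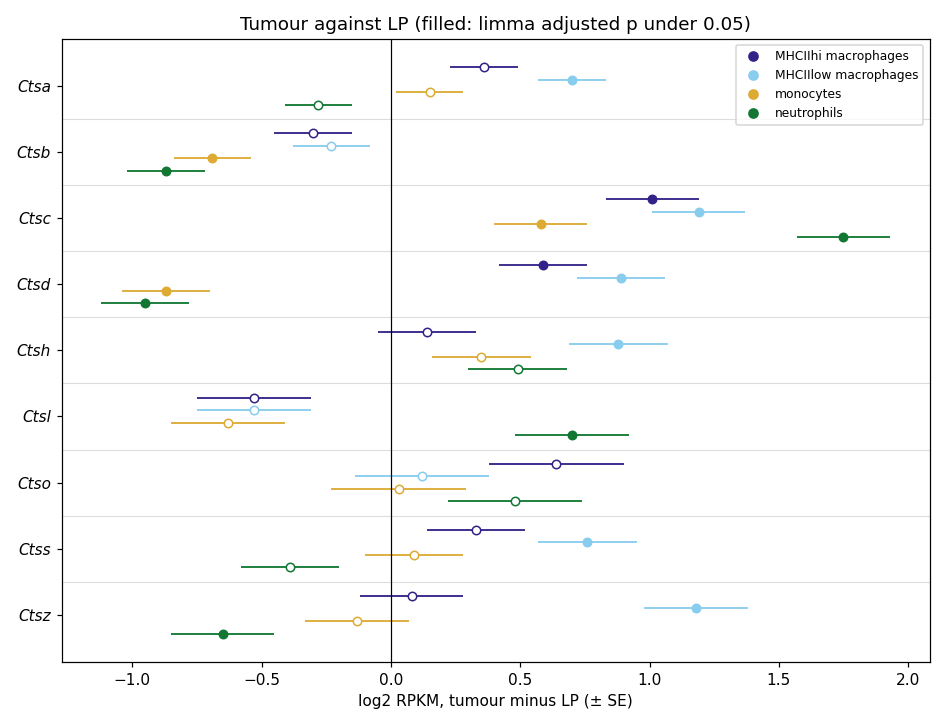
Difference between tumour and LP (log2 RPKM, horizontal axis) with its SE for 9 cathepsins in the 4 populations, filled where the limma adjusted p passed. *Ctsc* is filled to the right in all 4 populations, and *Ctsd* is filled to the right in macrophages and to the left in monocytes and neutrophils. *Ctsf* is left out because several of its libraries had no reads.

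Whether the tumour difference itself differed between populations was tested directly. Macrophages (the mean of both subsets) minus monocytes gave 1.61 ± 0.21 for *Ctsd* (limma adjusted p = 4.85e-05), the sole cathepsin called of 10, where 3.55% of all genes were called higher and 5.64% lower. All 31 alternatives for this value passed. Neutrophils minus monocytes gave 1.17 ± 0.25 for *Ctsc* (limma adjusted p = 0.00608) and 1.33 ± 0.31 for *Ctsl* (limma adjusted p = 0.0103), 2 of 10 against 3.61% higher and 5.5% lower over all genes, and the *Ctsc* value was 0.83 with quantile normalization (adjusted p = 0.0745). Between the macrophage subsets 0 of 10 were called by limma, against 1.13% higher and 0.326% lower, while 2 passed at an unadjusted p under 0.05 and voom on recovered reads called 2. The nearest was *Ctsz* at 1.11 ± 0.29 (limma adjusted p = 0.0588), which passed in 11 of 25 alternatives, among them the donor number as a random replicate block (adjusted p = 0.0496). Macrophages minus neutrophils was added after the opposite directions of *Ctsd* had been seen. There *Ctsd* differed by 1.69 ± 0.21 (limma adjusted p = 8.45e-06), and 5 of 10 cathepsins were higher and 2 lower, against 14.5% and 11.5% of all genes. *Ctsz* in macrophages minus monocytes was 0.77 ± 0.25 (limma adjusted p = 0.0598) and passed with the donor number as a random or a fixed replicate block (adjusted p = 0.0495 and 0.0283). These comparisons share libraries with each other and with those above. The share of all called genes that were higher went, with library sizes as summed reads, from 77.7 to 60.1% between the subsets, from 38.6 to 60.2% for macrophages minus monocytes, from 39.6 to 14.7% for neutrophils minus monocytes and from 55.7 to 82.4% for macrophages minus neutrophils.

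The second question was how the macrophage subsets differed. In LP, MHCIIlow macrophages had 1 of 10 cathepsins higher and 4 lower than MHCIIhi macrophages, against 2.13% and 5.57% of all genes. *Ctsd* was higher by 0.62 ± 0.17 (limma adjusted p = 0.0309), whereas *Ctsh* fell by 0.83 ± 0.19 (limma adjusted p = 0.0105), *Ctsz* by 0.71 ± 0.20, *Ctss* by 0.65 ± 0.19 and *Ctsa* by 0.50 ± 0.13. None of these 5 passed with the donor number as a fixed replicate block (adjusted p from 0.054 to 0.118), and 0 to 4 were called on leaving out a library, 0 without LP MHCIIlow pool II. With library sizes as summed reads the balance turned, with 2 higher and 1 lower, since *Ctsa* (-0.26, adjusted p = 0.198), *Ctss* (-0.40, adjusted p = 0.14) and *Ctsz* (-0.46, adjusted p = 0.106) lost their calls and *Ctsl* was called higher (0.60, adjusted p = 0.0406). The share of all called genes that were higher went from 27.6 to 63.5% in LP, and in tumours from 50 to 78.2%. In LP MHCIIlow pool II, where *Ctsh* was lowest of the 3, the monocyte markers summed to 457 RPKM against 143 and 161 in the other libraries. The 6 dendritic cell markers summed to 46.8 to 67.8 RPKM in LP MHCIIhi libraries and to 3.95 to 14.4 in LP MHCIIlow ones. Of the 4 tested, 3 were called lower in LP MHCIIlow cells, and their part in the cathepsin differences was not tested. In tumours *Ctsd* alone was called, 0.92 ± 0.17 higher in MHCIIlow cells (limma adjusted p = 0.0108), 1 of 10 against 0.567% of all genes higher and 0.567% lower. That call was lost without tumour MHCIIhi pool I (adjusted p = 0.0548) or MHCIIlow pool V (adjusted p = 0.073) and in a fit of only the libraries compared (adjusted p = 0.352).

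The third question was how macrophages and neutrophils stood against monocytes of the same tissue. In tumours all 10 cathepsins were higher in macrophages, where 16.8% of all genes were higher and 21.4% lower, and no tumour macrophage library overlapped a tumour monocyte library for any of them. *Ctsd* differed by 2.07 ± 0.15 (limma adjusted p = 1.04e-09), *Ctsb* by 1.57 ± 0.13 and *Ctss* by 0.54 ± 0.17, and the call of *Ctss* was lost without tumour monocyte pool II (adjusted p = 0.0744). In LP 8 of 10 were higher and none lower, against 12.5% and 17%, and *Ctss* and *Ctsz* did not pass, with 0.09 ± 0.17 and 0.22 ± 0.18. *Ctsd* was 0.46 ± 0.15 higher there (limma adjusted p = 0.0229), with overlapping libraries, and lost its call without LP monocyte pool III (adjusted p = 0.137) or V (adjusted p = 0.0819). The counts in both tissues include *Ctsf*, which had 0 to 50 reads per LP monocyte library and 34 to 66 per tumour one. With library sizes as summed reads the share of called genes that were higher in macrophages went from 42.4 to 52.5% in LP and from 44 to 66.4% in tumours.

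Neutrophils had lower levels of most cathepsins than monocytes and more *Ctsd*. In LP 1 of 10 was higher and 7 lower, against 24.1% and 30.4% of all genes, and in tumours 1 higher and 8 lower, against 23.3% and 34.9%. Both the 7 and the 8 included *Ctsf*. Its libraries overlapped in LP (limma adjusted p = 0.0379), and it lost its call there without LP monocyte pool III or V or LP neutrophil pool III or IV (adjusted p from 0.123 to 0.213). *Ctsz* in LP, at -0.42 ± 0.20 (limma adjusted p = 0.0841), passed with the fixed replicate block (adjusted p = 0.043) and without LP monocyte pool III (adjusted p = 0.0176). It was -1.25 with library sizes as summed reads (adjusted p = 3.67e-06) and -1.99 with quantile normalization (adjusted p = 9e-09). *Ctsb* in LP, at -0.25 ± 0.15 (limma adjusted p = 0.169), likewise was -1.08 and -1.86 (adjusted p = 8.57e-07 and 6.24e-09). Leaving out *Ctsf*, *Ctss* differed most, from 10.96, 11.00 and 10.91 in LP monocytes to 8.18, 7.73 and 8.25 in LP neutrophils, and it fell by 2.90 ± 0.19 (limma adjusted p = 2.64e-10) in LP and fell by 3.39 ± 0.19 in tumours (limma adjusted p = 2.33e-11). *Ctsc* fell by 2.62 ± 0.18 in LP and by 1.45 ± 0.18 in tumours. *Ctsd* was 1.92 ± 0.17 higher in LP neutrophils (limma adjusted p = 1.46e-08) and 1.84 ± 0.17 in tumour ones (limma adjusted p = 1.94e-08), and with quantile normalization the latter was 0.16 (adjusted p = 0.552). Other values near 0 also depended on the scaling. *Ctsl* in tumours was 0.16 ± 0.22 (limma adjusted p = 0.567), -0.84 with quantile normalization (adjusted p = 0.000862), -0.98 with library sizes as summed reads (adjusted p = 6.97e-05) and 0.60 with libraries centred on their median (adjusted p = 0.0299), so that calls went both ways. *Ctsb* in tumours was -0.42 ± 0.15 (limma adjusted p = 0.0214) and 0.02 with libraries centred on their median, and lost its call without monocyte pool V or neutrophil pool II (adjusted p = 0.125 and 0.101). The median of all genes was -0.24 in LP and -0.36 in tumours, and -1.11 and -1.52 with library sizes as summed reads, where the share of called genes that were higher in neutrophils went from 44.2 to 20.2% and from 40 to 14.7%.

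**Figure D4:**
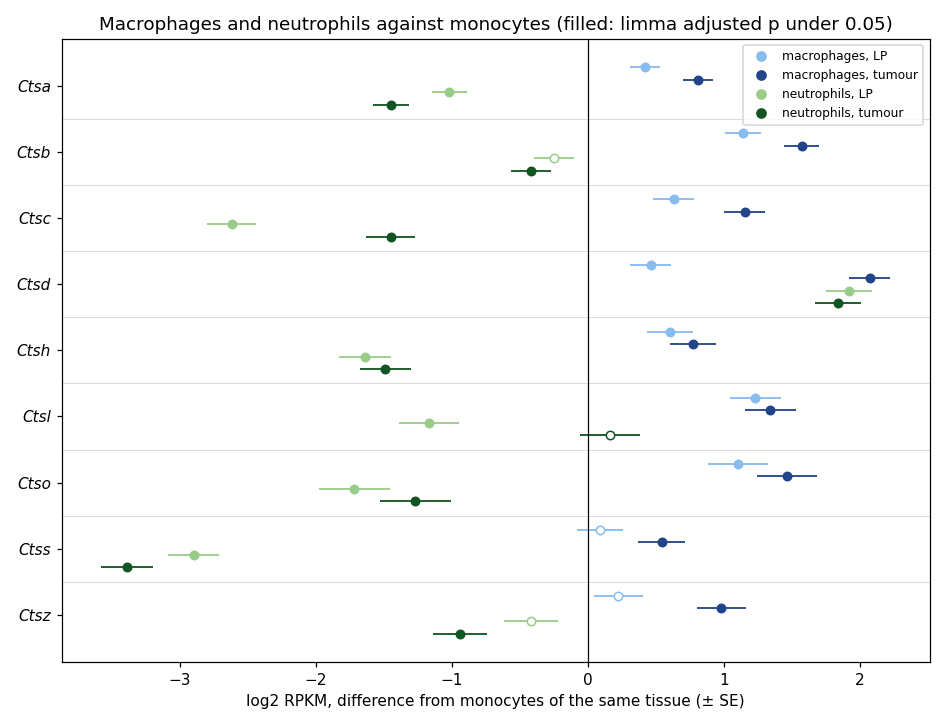
Difference of macrophages (blue) and neutrophils (green) from monocytes of the same tissue (log2 RPKM, horizontal axis) with its SE for 9 cathepsins, filled where the limma adjusted p passed. The 4 points of *Ctsd* are all to the right, and *Ctss* in neutrophils lies farthest to the left, at -2.90 in LP and -3.39 in tumours.

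Across the 24 libraries, the level of *Ctsd* was weakly and mostly inversely related to the others, with Pearson r from -0.44 with *Ctss* to 0.13 with *Ctsb*. The genes most like *Ctss* were *Rpl3*, *Irf8* and *H2-M3* (r = 0.984, 0.982 and 0.980), those most like *Ctsc* were *Emilin1*, *Txndc15* and *Ccdc47* (r = 0.973, 0.972 and 0.969), and those most like *Ctsd* were *Slc40a1*, *Cables1* and *Wdr77* (r = 0.883, 0.859 and 0.856). For the other 7, the most alike were *Itm2c* for *Ctsa* (r = 0.980), *Blnk* for *Ctsb* (0.966), *Phb* for *Ctsf* (0.970), *Tep1* for *Ctsh* (0.959), *Glul* for *Ctsl* (0.952), *Dhrs3* for *Ctso* (0.974) and *Scimp* for *Ctsz* (0.925). These values describe libraries that share populations and scaling and are given without a test.

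Among the inhibitors, 13 of the 20 listed genes were tested. The stefin gene *Stfa2l1* was read 251 to 903 times per neutrophil library and at most 4 times in any other library. Between tumour and LP neutrophils, where 13.1% of all genes rose and 19% fell, 2 of the 13 rose, *Stfa2* by 3.38 ± 0.85 (limma adjusted p = 0.00475) and *BC117090*, another stefin-like gene, by 2.53 ± 0.76 (limma adjusted p = 0.0151), and 1 fell, *Serpina3f*, which had at most a mean of 2.58 RPKM in either group. *Stfa2* had 9 to 67 reads per LP neutrophil library and 24 to 319 per tumour one, where it ran from 7.41 to 92.6 RPKM. *BC117090* had 5 to 26 reads per LP neutrophil library and 11 to 51 per tumour one. These stefin genes are near-identical copies whose reads may be split between them. *Cstb*, stefin B, fell by 1.07 ± 0.20 in tumour MHCIIlow macrophages (limma adjusted p = 0.00045) and by 0.67 ± 0.20 in MHCIIhi ones, with overlapping libraries (limma adjusted p = 0.0203), while *Cst3*, cystatin C, had means of 135 to 201 RPKM over the 4 macrophage groups. In MHCIIlow macrophages 2 of the 13 fell, *Cstb* and *Serpinb6a*, where 11.8% of all genes fell.

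Of the 8 genes for sorting and processing, *Lgmn*, the asparaginyl endopeptidase that cleaves cathepsin precursors, fell by 1.30 ± 0.15 in tumour monocytes (limma adjusted p = 2.36e-05) and fell by 1.98 ± 0.15 in tumour neutrophils (limma adjusted p = 4.03e-08). *M6pr*, the cation-dependent mannose 6-phosphate receptor, rose by 0.67 ± 0.13 in tumour MHCIIlow macrophages (limma adjusted p = 0.000793). In MHCIIhi macrophages its mean was 7.44 log2 RPKM in LP and 7.15 in tumours. *Igf2r*, the other such receptor, went the other way in MHCIIlow macrophages, from a mean of 0.65 in LP to -1.19 in tumours. In MHCIIhi macrophages *Igf2r* went from -0.07 to -2.90, and in neutrophils from 3.96 to 2.37. Over the list 1 of 8 rose and 1 fell in MHCIIlow macrophages, and 1 rose and 2 fell in neutrophils, against 11.5% and 11.8% of all genes in the former and 13.1% and 19% in the latter. Of 8 partners and substrates, 4 rose and none fell in MHCIIlow macrophages, against the same 11.5% and 11.8%. They included *Psap*, prosaposin, a substrate of cathepsin D (1.14 ± 0.17, limma adjusted p = 4.6e-05), and *Glb1* and *Neu1*, the enzymes that cathepsin A protects (1.06 ± 0.34 and 0.46 ± 0.15). Of 5 regulators, *Tfeb*, a factor that activates lysosomal genes, fell by 1.29 ± 0.30 in tumour neutrophils (limma adjusted p = 0.00239) while its relative *Tfe3* rose by 0.72 ± 0.15 (limma adjusted p = 0.00102). In MHCIIhi macrophages *Mitf* rose and *Spi1*, which encodes PU.1, and *Tfe3* fell, 1 higher and 2 lower against 8.01% and 11.5% of all genes. In MHCIIlow macrophages and in neutrophils 1 of the 5 rose and 1 fell. In monocytes 1 rose and none fell, against 4.86% and 4.43% of all genes.

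Of 13 further cathepsin genes, 3 were in the table. *Ctsk*, known for breaking down collagen, had its highest mean in LP MHCIIlow macrophages, 10.3 RPKM with a range of 7.33 to 14.4, against 0.729 to 2.15 in tumour MHCIIlow macrophages, and fell by 2.97 ± 0.90 (limma adjusted p = 0.0205). It fell in tumour MHCIIhi macrophages and neutrophils too, from means under 5 RPKM. The 6 fibroblast markers went the same way, from 19.6 to 62 RPKM in those LP libraries to at most 0.648 in tumour ones, with *Lum* and *Pdgfra* without reads in the latter, and their part in the level of *Ctsk* was not tested. *Ctse*, an aspartic protease, was higher in neutrophils than in monocytes, by 2.44 ± 0.50 in LP (limma adjusted p = 0.000376) and 3.04 ± 0.50 in tumours (limma adjusted p = 3.11e-05).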

How the data were processed

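RNA of the sorted populations was extracted from pooled tissue, amplified by a modified SMARTSeq v2 protocol, which does not mark strand, and sequenced as paired ends. Per the submitters' processing notes the authors aligned reads to GRCm38/mm10 by STAR 2.3, summarised them per GENCODE gene by featureCounts 1.5 and listed edgeR, and they deposited log2 RPKM values. The values carried a prior of 0.25 reads and scaled library sizes, read from the values themselves. All value columns were used. Whole reads were recovered for 100% of values (tolerance 0.001 reads) and used for depth and alternatives. Recovered gene lengths can differ from GENCODE M21, from which coordinates and shares of exon bases came, as for *Ctsl* (1971 against 6489 bases) and *Ctsb* (4739 against 6051). These shares need not hold for the genes as counted. Symbols matched 17190 of 17301 identifiers.

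The main test was limma 3.58.1 (R 4.3.3), fitting 8 group means with a trended eBayes to the 12878 genes whose mean RPKM reached 1 in any group, with Benjamini-Hochberg adjustment within each comparison and a threshold of 0.05, and the fit was tested on simulated data. The p-values measure the spread between pools. The cathepsins, gene lists and tests were chosen with earlier results of these data known. From each list up to 4 genes past the threshold with the largest differences and a mean of 5 RPKM or more in the higher group could be named, and for each cathepsin the 3 genes with the highest Pearson r. *Elane*, *Prtn3*, *Gzmb*, *Cst3*, *Serpina3f*, *Igf2r* and the overlapping genes were named outside this rule, after their values were seen. Alternatives were 2 other pseudocounts (1 and 0.1), a filter at 5 RPKM, 2 scalings, only the libraries compared, arrayWeights, the donor number as a block, voom on recovered reads and leaving out each library, and summed reads as library sizes were chosen after seeing the data. In the labels the number is a donor, so it pairs libraries of 1 tissue. Deviations from group means correlated with r from -0.0661 to 0.255 over 29 such pairs (median 0.0169). Tables were computed with python 3.11.15, numpy 2.4.6 and pandas 2.3.3, and figures drawn with matplotlib 3.10.9.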

Additional observations from a re-analysis of the deposited data

Results flagged for a closer look

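The tumour difference of 7 cathepsins differed between populations by limma's test of the difference itself. Of these, *Ctsa*, *Ctsb*, *Ctss* and *Ctsz* were called only between macrophages and neutrophils. Over all genes 14.5% were called higher and 11.5% lower there, against 3.55% and 5.64% for macrophages minus monocytes. For neutrophils minus monocytes the shares were 3.61% and 5.5%. *Ctsd* differed by 1.61 between macrophages and monocytes and by 1.69 between macrophages and neutrophils (log2, the first minus the second). *Ctsc* and *Ctsl* differed by 1.17 and 1.33 between neutrophils and monocytes. The comparison of macrophages with neutrophils, chosen after seeing the data, further gave 0.81 for *Ctsa*, 0.60 for *Ctsb*, -0.65 for *Ctsc*, -1.23 for *Ctsl*, 0.94 for *Ctss* and 1.28 for *Ctsz*. In that comparison the value of *Ctsc* was -0.12 with library sizes as summed reads (adjusted p = 0.729), and its call was lost without LP neutrophil pool III or V, LP MHCIIhi pool III, tumour MHCIIhi pool I or tumour neutrophil pool I or II (adjusted p from 0.05 to 0.125). The value of *Ctsb* was 0.30 with libraries centred on their median (adjusted p = 0.315) and lost its call without LP neutrophil pool III (adjusted p = 0.0586) or tumour neutrophil pool II (adjusted p = 0.0705). The value of *Ctss* was 0.63 with that centring (adjusted p = 0.053). Groups of 3 were too small for a search for single libraries that stood apart.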

How the results depend on the processing

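Counts of cathepsins called, of 10, moved as follows. For tumour against LP in MHCIIhi macrophages (2), log2(RPKM + 1) and arrayWeights gave 5, centring on the median 1, only the libraries compared 4, voom on recovered reads 7, summed reads 4 and voom with summed reads 6, and leaving out a library 1 to 2. In monocytes (3) only the libraries compared gave 1, and in neutrophils (5) arrayWeights gave 3. For the LP macrophage subsets (5), quantile normalization and summed reads gave 3, only the libraries compared 1, the fixed replicate block 0 and leaving out a library 0 to 4. For the tumour subsets (1), only the libraries compared gave 0 and leaving out a library 0 to 1. For the difference of tumour effects between subsets (0), log2(RPKM + 1) and both fits by voom gave 2, and log2(RPKM + 0.1), the stricter filter, quantile normalization, arrayWeights, the random replicate block and summed reads gave 1, as did leaving out a library (0 to 1). For macrophages minus monocytes (1), both pseudocounts, the stricter filter and both replicate blocks gave 2, arrayWeights 4, voom on recovered reads 3 and quantile normalization and both settings with summed reads 6, with 1 to 2 on leaving out a library. For neutrophils minus monocytes (2), quantile normalization gave 1, summed reads 5 and voom with summed reads 6. Calls over all 12878 genes moved too. For tumour against LP in MHCIIhi macrophages 1031 rose and 1480 fell, against 1832 and 1965 by voom on recovered reads. For the LP subsets 274 were higher and 717 lower, against 156 and 546 with the fixed replicate block. For macrophages minus monocytes 457 were higher and 726 lower, against 1237 and 759 by voom with summed reads. The cause of these changes was not tested. Between tumour neutrophils and monocytes *Ctsl* turned to -0.84 with quantile normalization and to -0.98 in both settings with summed reads, and *Ctsb* to 0.02 with centring. For the group orders, quantile normalization kept the highest group of 6 of the 10. Of the single values, 74 of 1505 that passed in neither setting changed sign.

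Pairing by donor number moved no other count by over 1.5 times. With 3 libraries a group, few reads limit *Ctsf* alone among the 10.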
